A study of Mus musculus with 15 samples.

Results

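Synaptic release and neurotransmitter genes were followed through optic tissue that was grown from mouse embryonic stem cells and steered towards neural retina or pigment epithelium. The set held 41 genes, chosen as a list of known parts of the presynaptic terminal, the synaptic cleft, the postsynaptic density and the transmitter systems, and every one of them was present in the expression table. They took 42 of its 23244 entries, because Rims1 was listed as 2 entries. Of these, 40 entries of 39 genes were tested, having reached 1 CPM (read counts scaled to the library's size) in 3 or more of the 15 libraries. The untested pair was Chat and Slc18a3, which make and load acetylcholine.

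Chemical synapses work by fusing transmitter-filled vesicles with the presynaptic membrane when calcium enters. The SNARE proteins Snap25, Stx1a and Vamp2 pull the membranes together, synaptotagmins sense the calcium, complexins and Unc13 proteins set the SNARE complex ready, and scaffolds such as Bsn, Pclo and Rims1 hold vesicles at the active zone. Vesicles are loaded by transporters that fix the transmitter (Slc17a6 and Slc17a7 for glutamate, Slc32a1 for GABA), while neurexins and neuroligins hold the 2 sides of the cleft in register. In the retina, photoreceptors, bipolar cells and ganglion cells mostly use glutamate, whereas amacrine and horizontal cells mostly use GABA or glycine. The pigment epithelium is not a neuronal tissue.

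All samples came from 1 line, the EB5 Rx::GFP+/- embryonic stem cells, in which GFP reports the eye-field gene Rx (Rax), grown by SFEBq, a serum-free aggregate culture that forms optic vesicles. The 3 Day 10 Rx::GFP+ libraries were made from GFP+ epithelium that had been cut out with forceps before any stimulation. The same kind of explant was then cultured with human recombinant bFgf (5 ng/ml) and 10% FBS (+Fgf, labelled neural retina) or with the GSK3 inhibitor CHIR99201 (3 uM for 24 hours, then 1 uM; +Wnt, labelled retinal pigmented epithelium) and collected at Day 12 and Day 15, giving 5 groups of 3 libraries. Serum was listed for the +Fgf medium only, so Fgf and serum cannot be told apart, and no tissue cultured past Day 10 without either stimulation was analysed here.

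Promoters are shown for the 3 members whose start region held a searched motif, and they ended on different sides: Gad2 was higher, and Syn1 and Gria2 lower, in Day 15 +Fgf than in Day 15 +Wnt. RefSeq promoter windows (GRCm38.p6, 250 bases before to 50 after the start) were on hand for 33 of the 41 members, 45 windows in all. They were searched on both strands for the RE1 element, the binding motif of the neuronal repressor REST, written as TTCAGCACC and GGACAGCGC with 2 free letters between them, and for the cAMP response element TGACGTCA. With up to 3 mismatches in the 18 letters, RE1 was found in 3 member windows (6.67%) and in 37 of all 32851 windows (0.113%). The cAMP response element was found in 1 member window (2.22%) and in 588 windows overall (1.79%). The printed stretches stop before both the RefSeq and the GENCODE start of the gene, run 5′ to 3′ on the gene's strand, and carry the motif letters in capitals.
Syn1, chrX:20921005-20921168, minus strand: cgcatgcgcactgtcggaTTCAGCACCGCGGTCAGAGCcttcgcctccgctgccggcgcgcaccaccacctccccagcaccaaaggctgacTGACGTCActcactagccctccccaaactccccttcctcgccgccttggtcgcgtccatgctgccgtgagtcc
Gria2, chr3:80802836-80803085, minus strand: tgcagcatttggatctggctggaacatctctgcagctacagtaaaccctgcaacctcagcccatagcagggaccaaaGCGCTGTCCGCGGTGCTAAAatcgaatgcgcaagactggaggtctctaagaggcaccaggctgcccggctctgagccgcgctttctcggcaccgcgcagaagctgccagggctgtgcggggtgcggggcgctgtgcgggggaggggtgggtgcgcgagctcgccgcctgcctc
Gad2, chr2:22622077-22622204, plus strand: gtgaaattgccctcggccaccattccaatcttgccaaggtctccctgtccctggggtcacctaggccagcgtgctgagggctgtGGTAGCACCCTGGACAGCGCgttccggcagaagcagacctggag
The Gria2 match differed from the motif at 1 letter and lay on the opposite strand, the Syn1 match at 2 letters and the Gad2 match at 3 letters. Syn1 also held the cAMP response element as its second capital run. A match is a description of letters, and binding was not measured.

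Depth was similar in all libraries, between 12556998 and 16175450 reads recovered from the deposited values, so that 1 read was worth 0.0620 to 0.0764 CPM. The labelled tissues were checked against marker lists. At Day 15 the eye-field gene Rax was at 287 to 343 CPM in +Fgf and 5.15 to 5.83 CPM in +Wnt, and the melanosome gene Pmel at 95.4 to 128 and 3112 to 4204 CPM. Mature pigment epithelium was not shown by Rpe65, which was at 0 in all 3 Day 15 +Wnt libraries. In the same marker list, Best1 and Lrat were also low there (at most 0.281 and 0.744 CPM). Rlbp1 and Trpm1 were instead at 230 to 269 and 1789 to 2247 CPM, beside 17 to 24 and 57.7 to 80.6 CPM in Day 15 +Fgf. Neuronal genes were expressed under both stimulations: the summed level of 15 early neuron and ganglion cell markers was 2588 to 2874 CPM in Day 15 +Fgf and 1793 to 2186 CPM in Day 15 +Wnt. The ganglion cell genes Atoh7, Isl1 and Pou4f2 were near 0 in Day 15 +Wnt (at most 0.14, 1.05 and 2.03 CPM), but Pou4f1 was at 5.89 to 8.75 CPM and Rbpms at 42 to 53.3 CPM, beside 24.3 to 33.3 and 39.7 to 50.9 CPM in Day 15 +Fgf. Tbr1, a factor of forebrain glutamatergic neurons, was at 174 to 216 CPM in Day 15 +Wnt. In bulk tissue, fewer cells of a type and less RNA per cell cannot be told apart, and this holds for every difference given here.

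The set rose in both tissues as they aged. Its summed level was 534 to 560 CPM at Day 10, 799 to 837 in Day 12 +Fgf, 887 to 959 in Day 12 +Wnt, 1776 to 1805 in Day 15 +Fgf and 1675 to 1807 in Day 15 +Wnt. Both Day 12 groups stood above Day 10 and both Day 15 groups above Day 12 with no overlap, while the 2 Day 15 groups overlapped in this sum. The sums hid opposite differences between single genes.

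**Figure D1:**
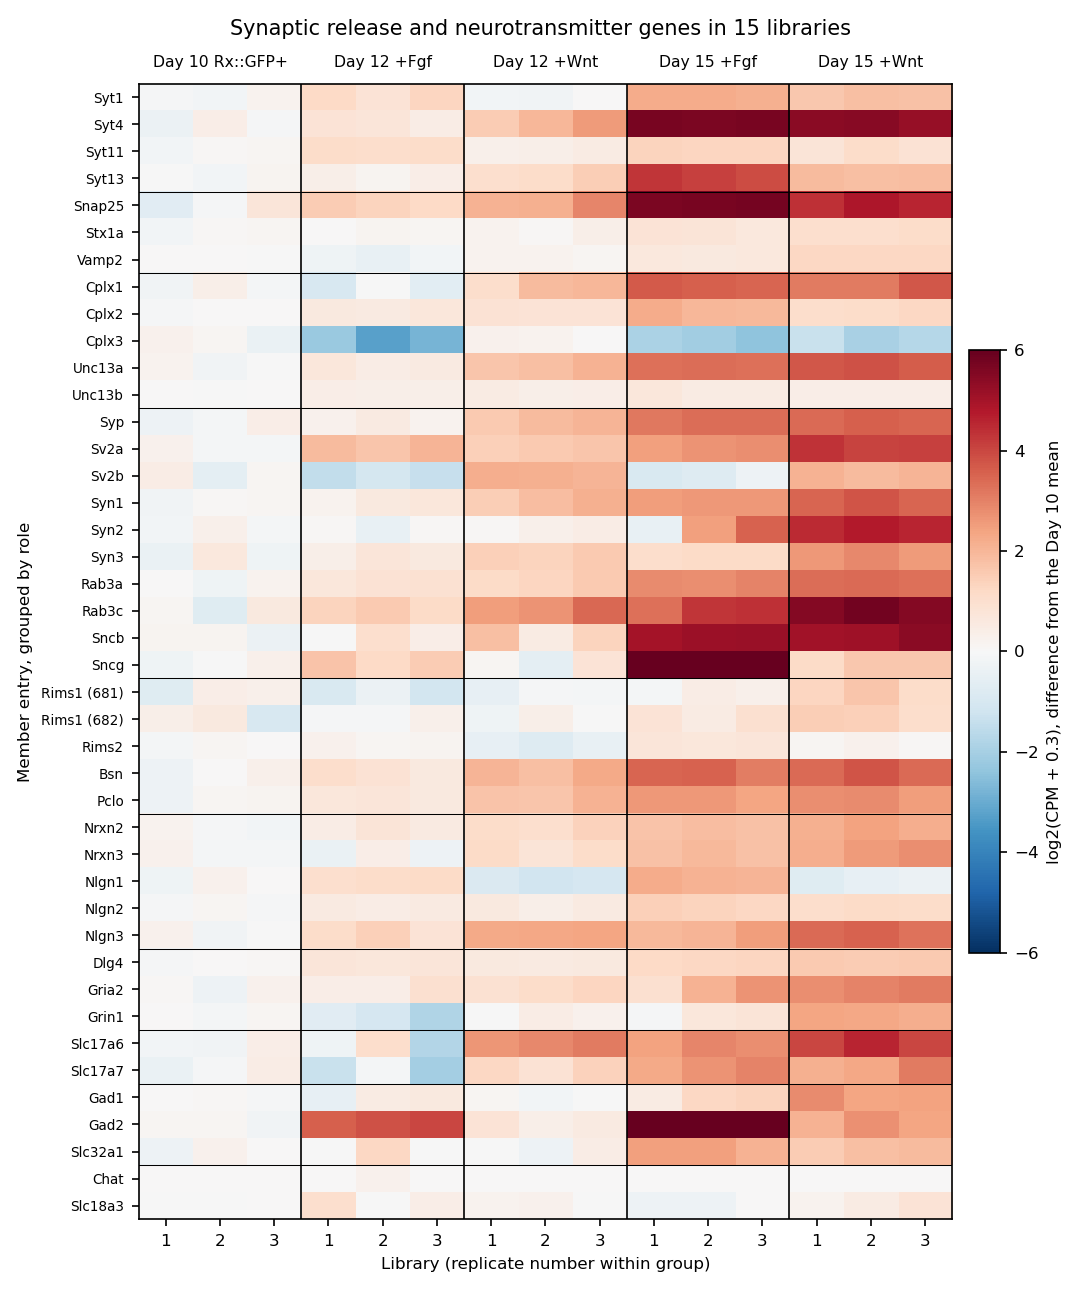
Each row is 1 of the 42 member entries, grouped by role, and each column 1 of the 15 libraries; the colour is log2(CPM + 0.3) minus the mean of the 3 Day 10 libraries, with the scale saturating at its ends. Red spreads over most rows by Day 15 under both stimulations, Cplx3 is blue in Day 12 +Fgf and at Day 15, Sncg and Gad2 reach the top of the scale in Day 15 +Fgf, and Syn2 is high in all 3 Day 15 +Wnt libraries but in only 2 of the 3 Day 15 +Fgf libraries.

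In the first 2 days of stimulation, 21 of the 40 tested entries rose and 6 fell in Day 12 +Fgf against Day 10 (limma, Benjamini-Hochberg adjusted p under 0.05), where 27.9% of all 13845 tested genes rose and 27.8% fell (55.7% called). In Day 12 +Wnt, compared with the same 3 Day 10 libraries, 28 rose and 2 fell, against 30.6% and 29.6% of all genes (60.2% called). The median log2 fold change of the entries was 0.50 in +Fgf and 1.05 in +Wnt, with medians over all genes of 0.00 and 0.01. Of the members, 9 rose and 4 fell by at least 1 on the log2 scale in +Fgf, and 21 rose and 0 fell by that much in +Wnt. The share of all genes at that size of change was not counted. Without a limit on size, edgeR on recovered reads called 18 higher and 5 lower in +Fgf and 28 higher and 2 lower in +Wnt. The largest rise in +Fgf was that of Gad2, from 0.0681, 0.0669 and 0 CPM to 3.87, 4.59 and 5.3 CPM, at least 21.7-fold above the level that 3 reads per library allow. With each library left out in turn, the counts ranged from 18 to 22 higher and 4 to 8 lower in +Fgf. When the study's RNA integrity number of each sample was a covariate, 15 rose and 5 fell in +Fgf, beside 20.5% and 20% of all genes. In +Wnt 24 rose and 2 fell, beside 25.2% and 25%. The integrity numbers of both Day 12 groups lay above all those of Day 10.

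From Day 12 to Day 15 nearly all tested entries rose in each tissue. Some of them, Syn2 and Slc32a1 included, reached 1 CPM only at Day 15. They passed the filter through their Day 15 values, which favours a rise, so they add no support to the counts. In +Fgf, 39 of 40 entries rose and 0 fell, against 27.2% and 29.9% of all tested genes (57.1% called); limma at an unadjusted p under 0.05 and edgeR also called 0 lower. The exception was the Rims1 entry XLOC_000682 (0.70 ± 0.32 log2, limma adjusted p = 0.0716). In +Wnt, 37 entries rose and 1, Cplx3, fell, against 32.5% and 35.5% of all genes (68.0% called), and Sv2b and Unc13b were not called (-0.11 ± 0.19 and -0.03 ± 0.05 log2). The median log2 fold changes were 1.53 and 1.42, where the median over all genes was -0.02 in both. When RNA integrity was a covariate, 31 rose and 0 fell in +Fgf, beside 13.6% and 12.4% of all genes. In +Wnt 37 rose and 1 fell, beside 32.5% and 35.3%. The integrity numbers did not overlap between Day 12 +Fgf and Day 15 +Fgf. The +Fgf and +Wnt comparisons share no library, and 36 of the 40 entries were called higher in both. The share of all genes called higher in both, at most 27.2%, was not counted. In the same steps, 15 of 15 early neuron markers rose in +Fgf and 12 of 15 in +Wnt, and the part of neuron number in the rise of the synaptic genes was not tested.

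Between the stimulations the set split. At Day 12, 7 entries were higher and 23 lower in +Fgf than in +Wnt (26.3% and 25.2% of all genes, 51.5% called), with a median log2 difference of -0.57 against 0.00 over all genes. At Day 15, 11 were higher and 19 lower (38.0% and 30.6% of all genes, 68.7% called), with a median of -0.29 against 0.05. Syn2 and the Rims1 entry XLOC_000681 passed the filter only through their Day 15 +Wnt values, which favours a lower call in +Fgf. They add no support to the 19. The early neuron markers were mostly lower in +Fgf at Day 12 (10 of 15 lower, 3 higher) and mostly higher at Day 15 (9 higher, 1 lower). The study lists an RNA integrity number for each sample, which was lowest on average in the Day 15 +Fgf group and did not overlap between the Day 15 groups. With it as a covariate, 9 entries instead of 19 were called lower in Day 15 +Fgf, beside 20.2% of all genes, and 10 instead of 11 higher, beside 25.7%. Of the 19 lower and 11 higher calls, those of Syt1 and Unc13b (higher) and of Stx1a, Unc13a, Syn2, Rab3a, Rab3c, Rims1, Nrxn2, Nrxn3, Gria2 and Slc17a6 (lower) were lost, and Slc17a7 was newly called higher. Within Day 15, integrity and stimulation cannot be told apart.

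**Figure D2:**
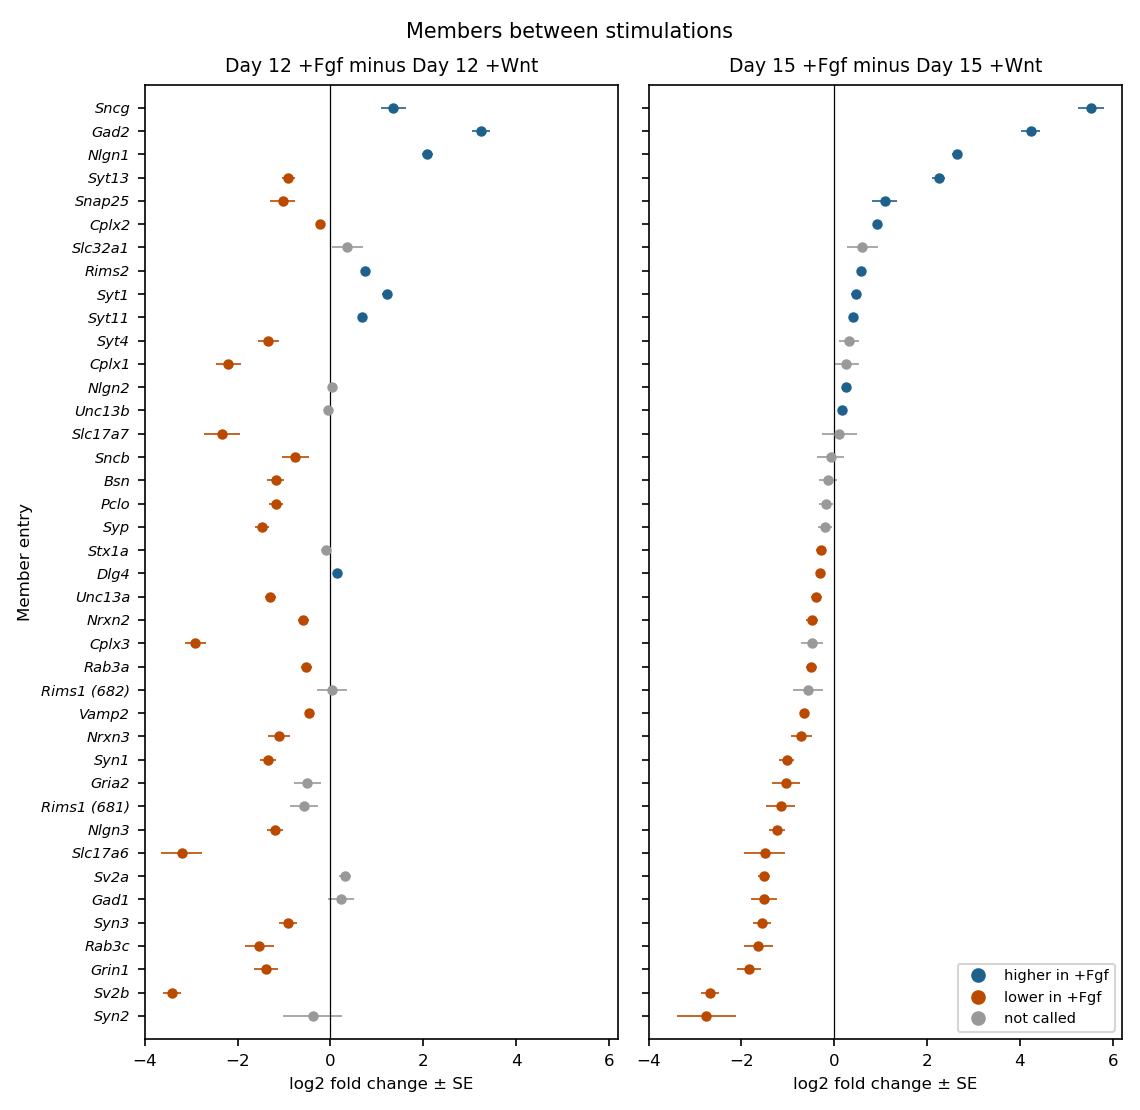
Points are log2 fold changes of +Fgf minus +Wnt at Day 12 (left) and Day 15 (right) with their SE for the 40 tested entries, ordered by the Day 15 value; blue and orange mark limma calls and grey no call. Sncg (5.53) and Gad2 (4.23) lead the Day 15 panel, Sv2b and Syn2 close it, and Syt13, Snap25 and Cplx2 are orange at Day 12 and blue at Day 15.

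The synaptotagmins among the members were Syt1, Syt4, Syt11 and Syt13. Syt1, the fast sensor of vesicle fusion, was at 20.4, 18.9 and 24.7 CPM at Day 10, 49.3, 38 and 52.1 in Day 12 +Fgf and 19.2, 18.5 and 21.6 in Day 12 +Wnt. At Day 15 it reached 100.3, 102 and 93.6 CPM in +Fgf and 65.5, 75.2 and 73.4 in +Wnt. Every Day 12 +Fgf library lay above every Day 12 +Wnt library (1.21 ± 0.11 log2, limma adjusted p = 1.05e-07), and the gap was smaller at Day 15 (0.47 ± 0.11). Syt13, a synaptotagmin whose C2 domains lack the calcium-binding residues, changed order between the days: it was at 3.61, 3.12 and 3.83 CPM in Day 12 +Fgf against 5.98, 6.4 and 8.34 in +Wnt, then 61, 52.7 and 46.9 CPM in Day 15 +Fgf against 11.4, 10.7 and 10.8 in +Wnt. The +Fgf libraries thus lay below all +Wnt libraries at Day 12 (-0.91 ± 0.14 log2) and above them at Day 15 (2.25 ± 0.14 log2, limma adjusted p = 4.23e-10), and its rise in +Wnt from Day 12 was small (0.65 ± 0.14). Syt4 rose from a mean of 0.721 ± 0.13 to 32.3 ± 0.328 CPM in +Fgf and from 2.37 ± 0.942 to 25.9 ± 1.86 CPM in +Wnt (SD, n = 3), and its Day 15 levels were not called different (0.32 ± 0.22 log2). Syt11, which tempers vesicle fusion and uptake, was already at 103 to 122 CPM at Day 10 and had the highest level per kilobase of exon of all members at Day 10, at Day 12 and in Day 15 +Wnt. At Day 15 it was at 285 ± 3.83 CPM in +Fgf and 216 ± 26.9 in +Wnt.

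Among the SNARE proteins, Snap25 moved most. The Snap25 gene (chr2:136713453-136782428, plus strand, mm10), whose product is the plasma membrane SNARE cut by botulinum toxin A, was at 0.409, 0.802 and 1.6 CPM at Day 10, 2.98, 2.55 and 2.3 in Day 12 +Fgf and 4.53, 4.66 and 8.27 in Day 12 +Wnt. It then stood at 57.1, 58.5 and 61.1 CPM in Day 15 +Fgf and 23.9, 32.8 and 26.6 in Day 15 +Wnt. The order of the tissues turned between the days, from lower in +Fgf at Day 12 (-1.03 ± 0.27 log2, limma adjusted p = 0.00478) to higher at Day 15 (1.09 ± 0.27 log2, limma adjusted p = 0.00202). The other two SNARE genes changed less. Vamp2, the vesicle SNARE, was at 49.1 to 50.2 CPM at Day 10, 74.5 to 77.1 in Day 15 +Fgf and about 119 ± 0.273 (SD, n = 3) in Day 15 +Wnt (-0.65 ± 0.06 log2), and Stx1a, the partner of Snap25 on the plasma membrane, was at 11.6 to 13.1 and 14.8 to 15.9 CPM. The small Stx1a difference (-0.28 ± 0.11 log2, limma adjusted p = 0.035) was no longer called when any 1 of 5 of the 6 Day 15 libraries was left out.

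The complexins, which clamp and then activate the SNARE complex, each took another course. Cplx2 was higher in +Fgf at Day 15 (119.8, 100.3 and 97.7 CPM) than in +Wnt (52.8, 55.2 and 59.1 CPM), with 0.92 ± 0.07 log2. Cplx1 was at 0.467 ± 0.266 CPM in Day 12 +Fgf and 3.23 ± 1.12 in Day 12 +Wnt (SD, n = 3), a difference of -2.20 ± 0.27 log2 (limma adjusted p = 4.08e-06). By Day 15 its levels were 12.5 ± 0.953 and 10.6 ± 2.68 CPM and were not called different. Cplx3, the complexin of retinal ribbon synapses and amacrine cells, was the one member called lower from Day 12 to Day 15. It was at 18.5, 16.4 and 11.7 CPM at Day 10 and 18.2, 17.5 and 15.3 in Day 12 +Wnt, but at 3.04, 1.34 and 1.92 in Day 12 +Fgf. At Day 15 it was at 3.83, 3.37 and 2.61 CPM in +Fgf and 5.89, 3.73 and 4.49 in +Wnt. All Day 12 +Fgf libraries lay below all Day 10 libraries (-2.76 ± 0.24 log2, limma adjusted p = 8.02e-08), and in +Wnt the fall came between Day 12 and Day 15 (-1.81 ± 0.24 log2, limma adjusted p = 3.67e-06). Its rise from Day 12 to Day 15 in +Fgf (0.62 ± 0.24) lost its call (limma adjusted p = 0.0332) under 10 of 17 alternatives, with values from 0.29 to 0.89 log2, among them edgeR (adjusted p = 0.0617), RNA integrity as a covariate, quantile normalisation and leaving out any of 4 single libraries, as far as 0.38 log2 without Day 12 +Fgf replicate 2.

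The priming factors Unc13a and Unc13b, which open syntaxin for SNARE assembly, also differed from each other. Unc13a was at 5.18, 3.81 and 4.28 CPM at Day 10, 7.23, 6.05 and 6.45 in Day 12 +Fgf and 14.3, 16.2 and 19.7 in Day 12 +Wnt. It rose to 46.6, 47.3 and 46.7 CPM in Day 15 +Fgf and 61.7, 65.3 and 57.6 in Day 15 +Wnt, so that the difference narrowed from -1.30 ± 0.12 to -0.39 ± 0.12 log2. Unc13b kept to 66.4 to 67.8 CPM at Day 10 and 95.3 to 107 and 87.3 to 88.7 CPM in the Day 15 groups. Unc13a shares 495 exon bases with Colgalt1 on the opposite strand, and whether the counting used strand is not stated.

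Vesicle proteins gave the largest Day 15 differences in both directions. Of the 10, at Day 15 only Sncg was higher in +Fgf and 7 were lower, where 38.0% of all genes were higher and 30.6% lower. Among the 7, the calls on Syn2, Rab3c and Rab3a were lost with RNA integrity as a covariate. Syn2 also passed the filter only through its Day 15 +Wnt values, so it adds no support to the 7. Sncg, gamma-synuclein, a vesicle-associated protein abundant in retinal ganglion cells (chr14:34370274-34374789, minus strand), was at 0.409, 0.535 and 0.764 CPM at Day 10, 2.47, 1.66 and 2.17 in Day 12 +Fgf and 0.629, 0.278 and 1.19 in Day 12 +Wnt. In Day 15 +Fgf it reached 119, 112 and 95.8 CPM while Day 15 +Wnt stayed at 1.61, 2.31 and 2.31 CPM. All 3 +Fgf libraries lay far above the +Wnt libraries, with a ratio of means of 52.4 and a log2 fold change of 5.53 ± 0.27 (limma adjusted p = 2e-11). Its level per kilobase of exon, 128 CPM, was the highest of the 41 members in Day 15 +Fgf and was 2.44 CPM in Day 15 +Wnt, where it ranked 25. Sncb, beta-synuclein, its paralog, rose in both tissues, to 18, 19.4 and 20.0 CPM in +Fgf and 18.3, 18.9 and 23.6 in +Wnt, and the Day 15 difference was not called (-0.08 ± 0.29 log2).

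The SV2 glycoproteins, which span the vesicle membrane, stood on the +Wnt side. Sv2b (chr7:75114894-75309262, minus strand) was at 47.3, 22.8 and 37.2 CPM at Day 10, 12.1, 16.2 and 13.2 in Day 12 +Fgf and 156, 150.5 and 143 in Day 12 +Wnt. At Day 15 it was at 18.2, 19.9 and 27.5 CPM in +Fgf and 147, 130.2 and 140.3 in +Wnt. It fell below Day 10 in +Fgf (-1.30 ± 0.19 log2), rose above it in +Wnt (2.12 ± 0.19 log2) and was lower in +Fgf at Day 12 (-3.42 ± 0.19, limma adjusted p = 2.99e-10) and at Day 15 (-2.67 ± 0.19, limma adjusted p = 2.64e-09). Sv2a, the more widespread SV2 protein, rose in the first 2 days under both stimulations, to 13.2, 11.2 and 14.4 CPM in +Fgf and 9.37, 10.6 and 11.1 in +Wnt. It then parted, at 19.8, 23.1 and 25 CPM in Day 15 +Fgf and 73.5, 60.1 and 62.4 in Day 15 +Wnt (-1.52 ± 0.13 log2, limma adjusted p = 1.88e-08). Syp, synaptophysin, the classic vesicle marker, was lower in +Fgf at Day 12 (8.05, 9.94 and 7.79 CPM against 20.1, 25.2 and 28.6 CPM, -1.48 ± 0.16 log2) and reached 61.6, 70.2 and 69.5 and 72.5, 82.9 and 76.6 CPM at Day 15, where the difference was not called (-0.20 ± 0.16 log2).

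The synapsins, which tether vesicles to each other and to actin, were all lower in Day 15 +Fgf. Syn1 was at 1.64, 2.07 and 2.14 CPM at Day 10, 2.28, 3.06 and 3.26 in Day 12 +Fgf, 5.98, 7.86 and 9.6 in Day 12 +Wnt, 12.3, 13.2 and 13.2 in Day 15 +Fgf and 25.1, 30.5 and 24.6 in Day 15 +Wnt (-1.03 ± 0.17 log2, limma adjusted p = 4.12e-05). Syn2 was under 0.3 CPM in every library before Day 15 and passed the filter only through its Day 15 +Wnt values. It then stood at 0, 1.99 and 4.45 CPM in Day 15 +Fgf and 9.0, 10.7 and 9.47 in Day 15 +Wnt, all +Wnt libraries above all +Fgf libraries (-2.75 ± 0.63 log2, limma adjusted p = 0.000982). Without Day 15 +Fgf replicate 1, the library at 0, the difference was -1.60 log2, and with RNA integrity as a covariate it was -1.40 log2 and not called (limma adjusted p = 0.342). Its rise from Day 12 in +Fgf (1.97 ± 0.63 log2) lost its call without replicate 2 (1.65) or replicate 3 (1.13) of Day 15 +Fgf. The Day 15 +Fgf mean was 11.2-fold above the worth of 3 reads per library at Day 12, but replicate 1 was itself at 0. Syn3 was at 3.95, 8.36 and 4.36 CPM at Day 10, 6.78, 8.92 and 7.92 in Day 12 +Fgf and 14.7, 13.9 and 16.4 in Day 12 +Wnt, and at 11.1, 12.1 and 12.2 and 33.7, 40.9 and 32 CPM in the Day 15 groups (-1.56 ± 0.20 log2, limma adjusted p = 2.3e-06). Syn3 (chr10:86055125-86498896, minus strand) shares 1733 exon bases with Timp3, which lies inside it on the opposite strand and was at 20.1 to 33.1 CPM in Day 15 +Fgf and 96.2 to 98.2 in Day 15 +Wnt. Reads of the pair cannot be told apart if strand was not used in counting. In all, 17 of the 41 members share exon bases with another annotated gene, 14 of them with one on the opposite strand.

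The Rab3 GTPases, which guide vesicles to the active zone, rose in both tissues. Rab3c was at 0.954, 0.401 and 1.45 CPM at Day 10, 2.6, 3.19 and 2.3 in Day 12 +Fgf and 6.29, 7.24 and 12.4 in Day 12 +Wnt, then 11.1, 22 and 23.5 in Day 15 +Fgf and 52.8, 63.7 and 53 in Day 15 +Wnt. It was lower in +Fgf on both days (-1.53 ± 0.31 and -1.63 ± 0.31 log2, limma adjusted p = 0.000654 and 0.000214). Rab3a, the main form in brain, was at 45.6 ± 3.15 CPM in Day 15 +Fgf and 64.2 ± 1.9 in Day 15 +Wnt (SD, n = 3), with a difference of -0.49 ± 0.12 log2. With RNA integrity as a covariate neither Day 15 call held (-1.19 log2 for Rab3c and -0.51 for Rab3a, limma adjusted p = 0.113 and 0.0878).

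**Figure D3:**
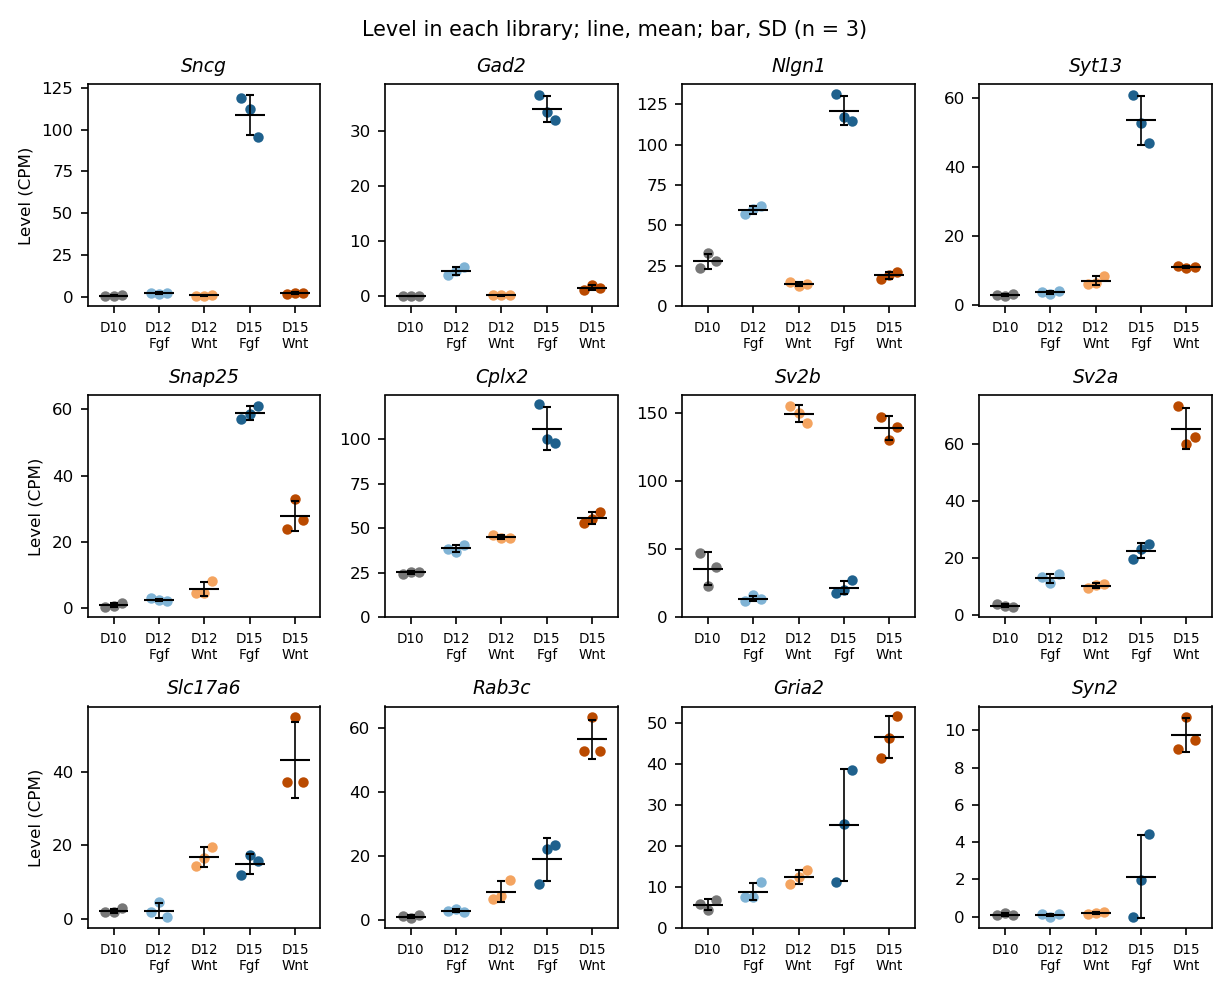
Each panel is 1 gene, points are single libraries in CPM on a linear axis, the line is the group mean and the bar the SD (n = 3; D10, Day 10; D12, Day 12; D15, Day 15). Sncg, Gad2, Nlgn1, Syt13, Snap25 and Cplx2 are highest in Day 15 +Fgf, Sv2b is high in both +Wnt groups, and Gria2 and Syn2 are spread widely among the 3 Day 15 +Fgf libraries.

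Of the active zone scaffolds, Bsn and Pclo were lower in +Fgf at Day 12 and not called different at Day 15. Bsn (bassoon) was at 3.11, 2.68 and 2.17 CPM in Day 12 +Fgf and 6.35, 5.29 and 7.55 in Day 12 +Wnt (-1.18 ± 0.19 log2, limma adjusted p = 6.23e-05), then at 18.1, 18.7 and 13.5 and 16.7, 22 and 16.6 CPM at Day 15 (-0.13 ± 0.19 log2, not called). Pclo (piccolo) was at 5.96, 6.24 and 5.56 CPM in Day 12 +Fgf and 12.5, 12.3 and 16.6 in Day 12 +Wnt (-1.17 ± 0.15 log2, limma adjusted p = 4.11e-06), then at 23.8, 23.8 and 19.8 and 26.5, 27.3 and 22.2 CPM at Day 15 (-0.17 ± 0.15 log2, not called). These very large scaffolds organise vesicles at both conventional and ribbon synapses. Day 10 levels were 1.02, 1.34 and 1.68 CPM for Bsn and 2.86, 4.01 and 4.13 CPM for Pclo. Rims2, which links vesicles to calcium channels, was higher in +Fgf on both days (0.75 ± 0.09 and 0.57 ± 0.09 log2), at 26 to 26.8 CPM in Day 15 +Fgf and 16.6 to 18.8 in Day 15 +Wnt. Its close relative Rims1 was low throughout, with a highest group mean of 2.66 CPM, and only the entry XLOC_000681 was called at Day 15 (-1.16 ± 0.30 log2). That entry passed the filter only through its Day 15 +Wnt values.

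Of the adhesion genes, Nlgn1 and Nlgn3 went opposite ways. Nlgn1, the neuroligin of excitatory synapses (chr3:25426215-26332460, minus strand), was at 23.4, 32.8 and 27.7 CPM at Day 10, 56.9, 60.1 and 61.7 in Day 12 +Fgf and 15.2, 12.4 and 13.8 in Day 12 +Wnt. It went on to 131, 117 and 115 CPM in Day 15 +Fgf and 16.9, 19.4 and 21.4 in Day 15 +Wnt. Its Day 12 levels thus lay on either side of Day 10 (1.09 ± 0.11 log2 in +Fgf and -0.99 ± 0.11 in +Wnt, limma adjusted p = 4.99e-07 and 1.09e-06). It was higher in +Fgf than in +Wnt by 2.09 ± 0.11 log2 at Day 12 and 2.64 ± 0.11 at Day 15. Nlgn3 was at 2.04, 1.4 and 1.6 CPM at Day 10, 3.93, 4.97 and 3.19 in Day 12 +Fgf, 9.25, 9.6 and 9.73 in Day 12 +Wnt, 7.23, 7.9 and 10.9 in Day 15 +Fgf and 20.7, 22.3 and 18.7 in Day 15 +Wnt, lower in +Fgf on both days (-1.20 ± 0.17 and -1.24 ± 0.17 log2). Nlgn2, the neuroligin of inhibitory synapses, rose in both tissues from 55.6 to 62.2 CPM at Day 10 to 139 to 154 in Day 15 +Fgf and 119.7 to 127 in Day 15 +Wnt. Their presynaptic partners Nrxn2 and Nrxn3 were both lower in Day 15 +Fgf (-0.48 ± 0.12 and -0.71 ± 0.23 log2), and both calls were lost with RNA integrity as a covariate (-0.48 and -0.43 log2, limma adjusted p = 0.102 and 0.463). The call on Nrxn3 was also lost with quantile normalisation (-0.33 log2) and without Day 15 +Wnt replicate 3 (-0.56 log2).

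The 3 postsynaptic members were all lower in Day 15 +Fgf. Grin1, the subunit common to NMDA receptors, was at 2.11, 1.87 and 2.29 CPM at Day 10, 1.2, 0.892 and 0.383 in Day 12 +Fgf, 2.08, 2.92 and 2.58 in Day 12 +Wnt, 1.99, 3.5 and 3.75 in Day 15 +Fgf and 12.2, 11.6 and 10.6 in Day 15 +Wnt. It fell in the first 2 days of +Fgf (-1.16 ± 0.26 log2) and was lower in +Fgf at Day 15 (-1.84 ± 0.26 log2, limma adjusted p = 8.64e-06). Gria2, the AMPA receptor subunit that keeps calcium out, was at 5.93, 4.48 and 6.95 CPM at Day 10, 7.73, 7.71 and 11.3 in Day 12 +Fgf and 10.9, 12.5 and 14.3 in Day 12 +Wnt. At Day 15 it was at 11.4, 25.4 and 38.6 CPM in +Fgf and 41.4, 46.5 and 51.7 in +Wnt, with no overlap but a wide spread in +Fgf (-1.04 ± 0.30 log2, limma adjusted p = 0.00531). The difference was -0.56 log2 without Day 15 +Fgf replicate 1 and was not called with RNA integrity as a covariate (-0.54 log2, limma adjusted p = 0.457). Dlg4 (PSD-95), the main scaffold of excitatory postsynaptic densities, was at 94.7 ± 3.33 CPM in Day 15 +Fgf and 117 ± 2.71 in Day 15 +Wnt (-0.31 ± 0.05 log2).

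The glutamate transporters marked +Wnt at Day 12. Slc17a6 (VGLUT2), the form that retinal ganglion cells and many subcortical neurons use, was at 1.77, 1.67 and 2.75 CPM at Day 10, 1.65, 4.46 and 0.383 in Day 12 +Fgf and 14.3, 16.6 and 19.6 in Day 12 +Wnt (-3.20 ± 0.44 log2, limma adjusted p = 1.32e-05). At Day 15 it was at 12, 17.4 and 15.6 CPM in +Fgf and 37.3, 55.3 and 37.3 in +Wnt, still lower in +Fgf without overlap (-1.50 ± 0.44 log2, limma adjusted p = 0.00647). With RNA integrity as a covariate the Day 15 difference was -0.73 log2 and was not called (limma adjusted p = 0.495). Slc17a7 (VGLUT1), the form of photoreceptors, bipolar cells and cortical neurons, was at 0.764 ± 0.735 CPM in Day 12 +Fgf and 4.34 ± 0.838 in Day 12 +Wnt (-2.34 ± 0.39 log2). Its fall from Day 10 in +Fgf (-1.17 ± 0.39) was no longer called without Day 12 +Fgf replicate 3 (-0.72 log2) or by edgeR (-1.23). Its Day 15 means were 12.7 ± 3.2 and 12.1 ± 4.86 CPM and were not called different (0.11 ± 0.39 log2).

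The GABA genes split by isoform. Gad2 (GAD65), which makes GABA at nerve terminals (chr2:22622205-22693874, plus strand), was at 3.87, 4.59 and 5.3 CPM in Day 12 +Fgf and 0.315, 0.139 and 0.199 in Day 12 +Wnt (3.24 ± 0.20 log2, limma adjusted p = 1.08e-09). By Day 15 it was at 36.6, 33.4 and 31.9 CPM in +Fgf and 1.18, 2.01 and 1.47 in +Wnt, with a ratio of means of 21.9 (4.23 ± 0.20 log2, limma adjusted p = 1.54e-11). Gad1 (GAD67), which makes most GABA of the cell body, went the other way. It was at 0.75, 0.802 and 0.688 CPM at Day 10, 0.444, 1.15 and 1.28 in Day 12 +Fgf and 0.818, 0.626 and 0.728 in Day 12 +Wnt, then at 1.18, 2.2 and 2.33 CPM in Day 15 +Fgf and 7.26, 5.15 and 5.26 in Day 15 +Wnt (-1.52 ± 0.28 log2, limma adjusted p = 0.000135). Per kilobase of exon, Gad2 was at 5.78 CPM and Gad1 at 0.249 CPM in Day 15 +Fgf, and in Day 15 +Wnt they were at 0.265 and 0.771 CPM, so the order of the isoforms was opposite in the 2 tissues. Slc32a1, the vesicular GABA transporter, was low at Day 15 in both (1.7, 1.72 and 1.27 CPM in +Fgf and 0.744, 0.969 and 1.05 in +Wnt), and the difference was not called (0.61 ± 0.33 log2). Dlx1 and Dlx2, factors of GABAergic and ganglion cell lineages, were also higher in Day 15 +Fgf, at 35.1 to 38.5 and 37.1 to 40.6 CPM. In Day 15 +Wnt they were at most at 0.351 and 1.24 CPM. Both were picked, after their values were seen, from the list of 12 brain-region markers. As a whole that list went the other way, with a summed level of 149 to 251 CPM in Day 15 +Fgf and 445 to 511 CPM in Day 15 +Wnt. Of the 9 amacrine and horizontal cell markers, 4 were higher and 3 lower in Day 15 +Fgf, and their summed level was 125 to 140 CPM in Day 15 +Fgf and 140 to 193 CPM in Day 15 +Wnt. Within that list Ptf1a was at 6.15 to 7.08 CPM in +Fgf and at most 0.149 in +Wnt, whereas Lhx1 was at 0.147 to 2.88 and 17.8 to 32.5 CPM and Calb2 at 3.91 to 21.1 and 65.2 to 87.4 CPM. Their part in the Gad2 difference was not tested.

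Acetylcholine genes were at or near the limit of detection. Chat, choline acetyltransferase, had 1 read in 1 Day 12 +Fgf library (0.0637 CPM) and 0 in the other 14 libraries, and 0 reads allow at most 0.186 to 0.229 CPM, the worth of 3 reads, across libraries. Expression of Chat was not detectable at this depth. Slc18a3, the vesicular acetylcholine transporter that lies within the Chat gene, reached at most 0.444 CPM.

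The change from Day 12 to Day 15 was then compared between the tissues directly. It was larger (more positive) in +Fgf for 18 entries and smaller for 6, against 27.0% and 20.9% of all genes (47.9% called). Syn2, among the 6, passed the filter only through its Day 15 +Wnt values and adds no support to that count. All 3 complexins, both Unc13 genes and both glutamate transporters were among the 18. The change was also more positive in +Fgf for 13 of the 15 early neuron markers. The largest values were those of Sncg (4.18 ± 0.38 log2), Syt13 (3.16 ± 0.20), Cplx1 (2.46 ± 0.39) and Slc17a7 (2.45 ± 0.55), and the lowest those of Syn2 (-2.37 ± 0.89), Sv2a (-1.83 ± 0.18) and Gad1 (-1.74 ± 0.40). Several calls near the threshold, those of Syn2, Slc17a6, Syt11, Nlgn2, Sv2b and Unc13b, were lost when single libraries were left out. The largest 2 had limma adjusted p = 2.29e-07 and 4.57e-09. With RNA integrity as a covariate, 13 were called larger and 3 smaller, beside 15.8% and 12% of all genes.

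**Figure D4:**
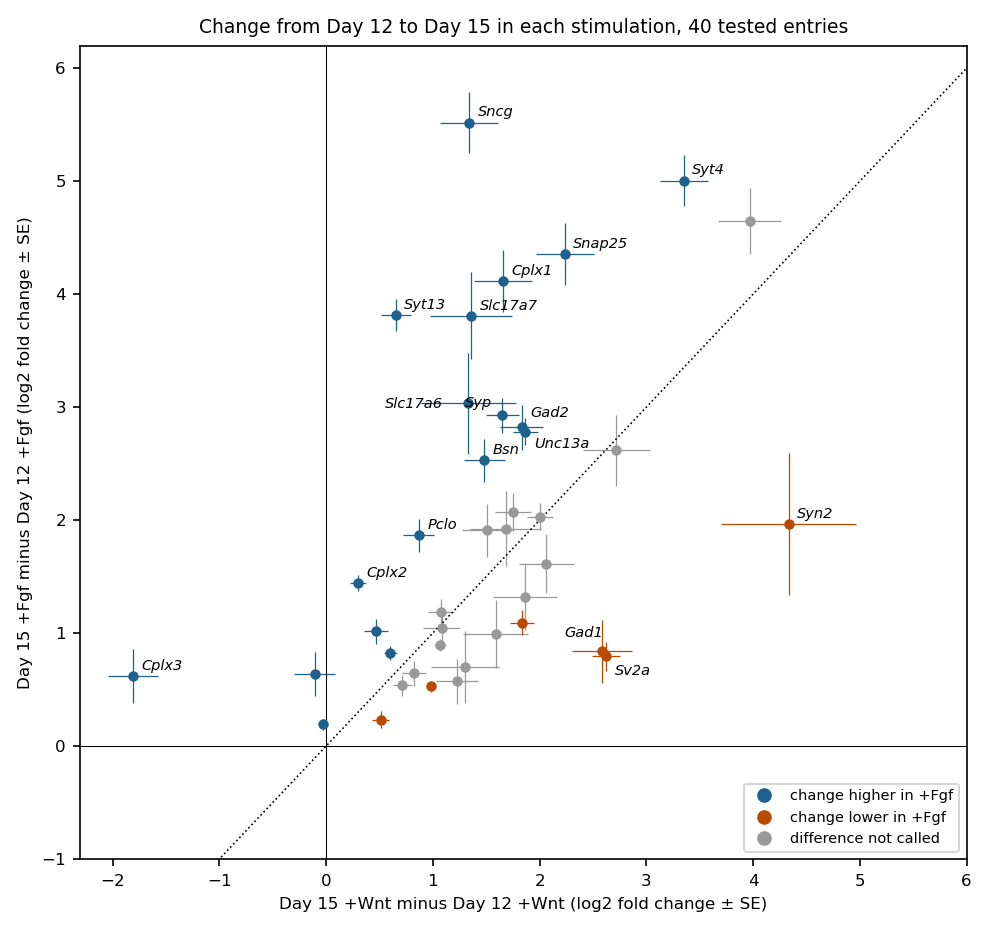
Each point is 1 of the 40 tested entries, with the log2 change from Day 12 to Day 15 in +Wnt across and in +Fgf up, bars for SE, and a dotted line where both changes are equal; blue and orange mark a called difference in change. Nearly all points lie above and right of 0, Cplx3 alone is called on opposite sides (0.62 in +Fgf, a call lost under 10 of 17 alternatives, and -1.81 in +Wnt), and Sncg, Syt13, Cplx1 and Slc17a7 lie farthest above the line.

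Some members that were lower in Day 15 +Fgf than in Day 15 +Wnt varied among the 3 +Fgf libraries, while others, such as Syn1, Syn3, Unc13a, Vamp2 and Dlg4, varied little. Replicate 1 was the lowest of the 3 for Syn2 (0, against 1.99 and 4.45 CPM), Gria2 (11.4, against 25.4 and 38.6), Rab3c (11.1, against 22.0 and 23.5) and Grin1 (1.99, against 3.50 and 3.75), whereas Snap25, Sncg and Gad2 differed little between them. These 4 members were named after their values were seen, and 3 forebrain markers were also lowest in replicate 1. Tbr1 was at 0.885, 26.2 and 41.2 CPM, Emx2 at 0.811, 8.52 and 19.5 CPM and Emx1 at 0, 7.69 and 11.6 CPM in replicates 1, 2 and 3, and all were higher in Day 15 +Wnt (174 to 216, 111 to 143 and 20.9 to 31.2 CPM). The summed level of the 12 brain-region markers, which include Dlx1 and Dlx2, was 149, 198 and 251 CPM in the 3 Day 15 +Fgf libraries, 445 to 511 CPM in Day 15 +Wnt and 159 to 197 CPM at Day 10. In Day 12 +Fgf, Tbr1 was at 7.42, 17.8 and 2.87 CPM while Slc17a6 was at 1.65, 4.46 and 0.383 and Slc17a7 at 0.507, 1.59 and 0.192 CPM, with replicate 2 highest and replicate 3 lowest in all 3 genes. The part of brain-like cells in the differences between the stimulations was not tested. Without Day 15 +Fgf replicate 1, Syn2, Gria2, Rab3c and Grin1 were still lower in Day 15 +Fgf than in +Wnt, at -1.60, -0.56, -1.29 and -1.58 log2 (limma adjusted p = 0.00024, 0.0252, 0.00145 and 5.4e-05).

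**Figure D5:**
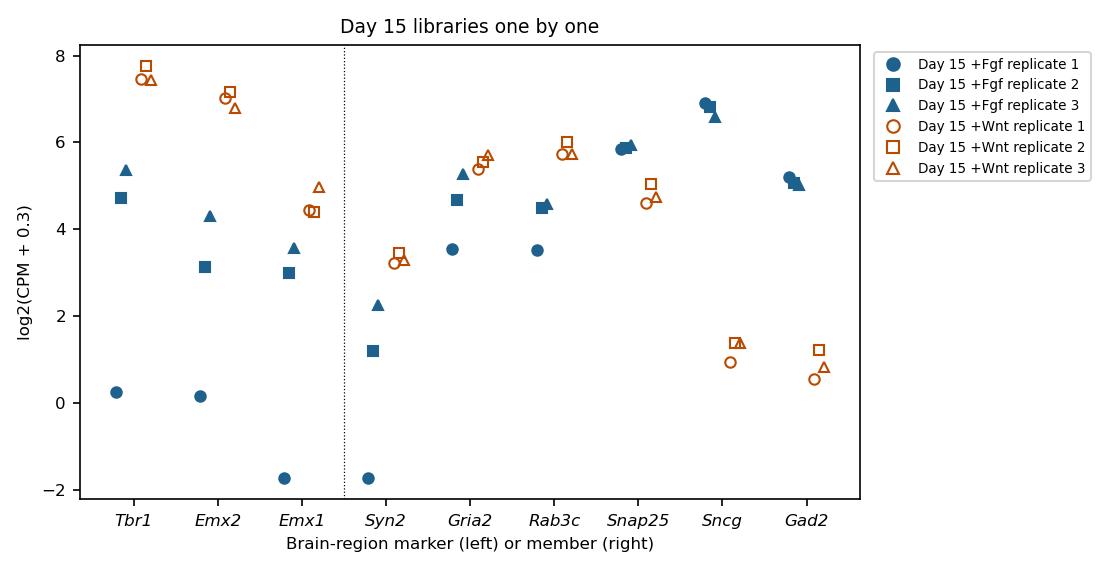
Each marker shape is 1 replicate, filled for Day 15 +Fgf and open for Day 15 +Wnt, with log2(CPM + 0.3) up and 3 brain-region markers (left of the dotted line) and 6 members (right) across. Replicate 1 of +Fgf (filled circle) lies lowest for Tbr1, Emx2, Emx1, Syn2, Gria2 and Rab3c and beside the others for Snap25, Sncg and Gad2.

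A wider list of 94 other synaptic genes, 84 of them tested, was read beside the members. From Day 12 to Day 15, 50 rose and 14 fell in +Fgf (27.2% and 29.9% of all genes), and 62 rose and 9 fell in +Wnt (32.5% and 35.5% of all genes). At Day 15, 18 were higher and 43 lower in +Fgf than in +Wnt (38.0% and 30.6% of all genes), among them 11 lower and 1 higher of 14 vesicle proteins and 15 lower and 3 higher of 23 tested receptor and postsynaptic density genes. The largest differences towards +Fgf were those of Chrna3, a nicotinic receptor subunit (164 ± 13.7 against 8.88 ± 2.01 CPM, 4.19 ± 0.16 log2), and Slc6a11, a GABA uptake transporter (30.7 ± 6.53 against 1.66 ± 0.246 CPM, 3.97 ± 0.35 log2). Towards +Wnt they were those of Glra2, a glycine receptor subunit (2.75 ± 1.51 against 15.3 ± 1.95 CPM, -2.46 ± 0.37 log2), and Synpr, synaptoporin of the vesicle membrane (8.28 ± 1.45 against 43.5 ± 5.53 CPM, -2.36 ± 0.16 log2). From Day 12 to Day 15, Rph3a, a Rab3 effector on vesicles, rose most in each tissue (5.35 ± 0.22 log2 in +Fgf and 4.49 ± 0.22 in +Wnt), followed by Doc2b, a calcium sensor, in +Fgf (3.79 ± 0.16) and Dlg2, a postsynaptic scaffold, in +Wnt (3.41 ± 0.21). Among those that fell were Ddc and Rab3b in +Fgf (-1.34 ± 0.20 and -1.24 ± 0.21 log2) and Chrna3 and Syt3 in +Wnt (-1.43 ± 0.16 and -1.14 ± 0.19 log2). Chrna3 thus fell in +Wnt while it stood higher in +Fgf.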

How the data were processed

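RNA-seq libraries (TruSeq Stranded mRNA) were made from 15 explant samples, 3 in each of 5 groups, taken from the sample titles. The study calls them biological triplicates, and p-values measure the spread between these libraries. Per the submitters' processing notes, reads were handled with bcl2fastq 1.8.4, FastQC 0.10.1, TopHat2 2.0.8b, Cufflinks 2.1.1, Cuffdiff and edgeR 3.2.4 on mm10. The deposited values are a normalised signal per gene, scaled by the authors from counts to library size (CPM) with normalisation factors, and 100% of them were whole multiples of 1 read (tolerance 0.001), so the reads behind the deposited values were recovered.

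Values were tested as log2(CPM + 0.3) with limma 3.58.1 (R 4.3.3), with a mean-variance trend and Benjamini-Hochberg adjustment over 13845 entries with at least 1 CPM in 3 libraries, at a threshold of 0.05, two-sided. All 5 groups shared 1 fit of 7 comparisons. The fold changes, given ± SE, understate the change of genes with low values. The script was tested on simulated data. The count test of edgeR 4.0.16 on the recovered reads, other pseudocounts, filters and scalings, RNA integrity as a covariate, a replicate block and leaving out each library were alternatives. Tables and plots were made with Python 3.11.15, NumPy 2.4.6, pandas 2.3.3 and matplotlib 3.10.9. Positions are from GENCODE M21 on GRCm38 (mm10), and promoters from RefSeq.

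All members are named. Values in every library were given for members with adjusted p under 0.05 and a log2 difference of at least 1 between the stimulations at Day 12 or Day 15 and at least 5 CPM in the higher group, and other members mostly by means or ranges. Of the other synaptic genes, up to 2 higher and 2 lower in each Day 15 comparison were named by size. Members, lists and tests were chosen with earlier results of these data known. Timp3, Dlx1, Dlx2, Ptf1a and the forebrain markers were named after their values were seen. No protein sequence is shown, and 1 marker gene is not reported here.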

Additional observations from a re-analysis of the deposited data

Results flagged for a closer look

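The change from Day 12 to Day 15 differed between the stimulations for 24 of the 40 tested entries, by the interaction term of the limma fit (adjusted p under 0.05), where 47.9% of all genes did so. Positive values mean a more positive change in +Fgf, and negative values a more positive change in +Wnt. The difference was 4.18 log2 for Sncg, 3.16 for Syt13, 2.46 for Cplx1, 2.45 for Slc17a7, 2.43 for Cplx3, 2.12 for Snap25, 1.70 for Slc17a6, 1.65 for Syt4, 1.28 for Syp, 1.14 for Cplx2, 1.05 for Bsn and 1.00 for Pclo. It was 0.99 for Gad2, 0.91 for Unc13a, 0.74 for Sv2b, 0.55 for Nlgn1, 0.22 for Nlgn2 and 0.22 for Unc13b. It was -0.28 for Syt11, -0.46 for Dlg4, -0.74 for Syt1, -1.74 for Gad1, -1.83 for Sv2a and -2.37 for Syn2. Cplx3 is the member called in opposite directions in the 2 tissues, but its rise in +Fgf lost its call under 10 of 17 alternatives. The value for Gad2 was 0.10 by edgeR (adjusted p = 0.935), and that for Syn2 was -1.05 by edgeR (adjusted p = 0.708) and -1.21 without Day 15 +Fgf replicate 1. The value for Slc17a6 was 0.98 without Day 12 +Fgf replicate 3 (limma adjusted p = 0.0606).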

How the results depend on the processing

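Of 3830 re-computed gene values under the alternatives, 3643 kept their direction and side of the threshold, 187 lost the call and 0 reversed. RNA integrity as a covariate cost 39 calls and quantile normalisation 18. With RNA integrity, 9 members (22.5%, beside 20.2% of all genes) were lower in Day 15 +Fgf than in Day 15 +Wnt and 3 (7.5%, beside 12%) had a smaller change in +Fgf. With no filter on low values, 1 member (Slc18a3) was lower in Day 15 +Fgf than in Day 12 +Fgf. With each library left out, members higher and lower numbered 18 to 22 and 4 to 8 (Day 12 +Fgf against Day 10), 27 to 28 and 2 (Day 12 +Wnt against Day 10), 35 to 38 and 0 (Day 15 against Day 12, +Fgf), 36 to 37 and 1 (the same, +Wnt), 6 to 8 and 22 to 23 (+Fgf against +Wnt, Day 12), 11 and 17 to 19 (the same, Day 15) and 15 to 17 and 4 to 7 (difference in change). The calls on the rises from Day 12 to Day 15 of Gad1 in +Fgf (0.50 log2 without Day 12 +Fgf replicate 1), Sv2b in +Fgf (0.46 without Day 15 +Fgf replicate 3) and Slc17a6 in +Wnt (1.15 without Day 15 +Wnt replicate 2) were lost when those libraries were left out. Same-numbered libraries did not deviate together (median r -0.008 over 30 pairs, 5 of 15 closest to their own number). No pairing by number was seen, but these correlations cannot exclude one. A replicate block ended 2 calls and gave 23 members higher in Day 12 +Fgf than at Day 10. Depth limits Chat, Slc18a3, Slc32a1 and early Syn2 and Gad2, which had few reads.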
